A study of Mus musculus with 18 samples.

Results

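Double-negative (DN) thymocytes, the thymus cells that lack CD4 and CD8 on their surface, were compared with their DN1 subset in mice given an antibody against DLL4. The comparison held 6 of the 18 arrays of the study: 3 arrays of DN1 cells, sorted as CD44-positive and CD25-negative DN cells, and 3 arrays of all DN cells, both chosen by their sample titles. It asks what still separates the subset from all DN cells when DLL4 is blocked. All mice were C57BL/6, an inbred strain with no engineered allele named in the labels, and thymi were taken 2 weeks after injection. The same subset and the same DN gate from mice given an isotype control antibody gave 2 and 3 arrays, which are set beside the treated values. The study describes 4 animals per antibody and no source ties a sample to an animal, so arrays of DN1 and DN cells may share animals, and p-values measure only the spread between these samples. DN1 cells lie inside the DN gate, so both samples hold DN1 cells. RNA was amplified in 2 rounds before labelling.

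DLL4 on thymic epithelium binds NOTCH1 on incoming progenitors, and the cleaved receptor joins the DNA-binding protein RBPJ to switch on T-lineage genes. Progenitors pass from DN1 (CD44-positive, CD25-negative) through the CD25-positive stages DN2 and DN3, where the pre-T receptor is made, to CD4 and CD8 double-positive cells. Without this signal in the thymus the T lineage stops at its start and B cells can develop there; dendritic, myeloid, NK and B cells can also carry CD44 without CD25 and so fall in a DN1 gate.

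Values below are log2 of the background-subtracted spot intensity, from which the 75th percentile of all spots other than controls was taken on each array, so that 0 marks a spot as bright as that percentile. A gap is the mean of DN1 arrays minus the mean of DN arrays on this log2 scale, given relative to the median gap of all 21228 genes tested. That median was -0.05 after anti-DLL4 and -0.72 with the isotype antibody. A gene was tested where 2 or more of the 6 treated arrays had its brightest probe well above background. It was called where the p from limma, after Benjamini-Hochberg adjustment, was under 0.05, in a linear model fitted to all genes with a shared spread over the 18 arrays. The 75th percentile of intensity was 977.7, 3641.7 and 3019.4 on the treated DN1 arrays (replicates 1 to 3) and 887.7, 1076.8 and 741.3 on the treated DN arrays. It was 2643.1 and 1831.7 on the control DN1 arrays and 260.2, 337.9 and 675.5 on the control DN arrays. Between 74.9% and 80.2% of spots were well above background on treated DN1 arrays, against 63.7% to 67.2% on treated DN arrays, a difference in array strength that moves with the groups. By that flag, 712 genes were well above background on all 3 treated DN1 arrays and on no treated DN array, and 0 the other way round. Only slide 3 held both treated groups (replicate 2 of each), so slide and group could be compared on that slide alone.

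After anti-DLL4, few genes separated DN1 from DN cells beyond the spread between arrays. Of 21228 genes, 1 was called higher in DN1 cells (0.00471%) and 0 were called lower (0%), while 873 (4.11%) had an unadjusted limma p under 0.05, 555 of them higher (2.61%) and 318 lower (1.50%). With the isotype antibody the same gap was called higher for 245 genes (1.15%) and lower for 38 (0.179%). Correlations across the tested genes between a treated DN1 and a treated DN array ran from 0.85 to 0.95. Within treated DN1 arrays they ran from 0.86 to 0.92, and within treated DN arrays from 0.92 to 0.95. These describe genes within arrays that share all probes, and genes are not independent replicates. Between control DN1 and control DN arrays they ran from 0.73 to 0.92, against 0.78 to 0.92 within control DN arrays and 0.91 within control DN1 arrays. The design limits what such a count can show: the median standard error of a treated gap was 0.75 log2 units.

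The called gene was Mpped2, which encodes a metallophosphoesterase domain protein. Its brightest probe read 0.29, -0.17 and -1.83 on the treated DN1 arrays and -8.58, -7.99 and -7.11 on the treated DN arrays, where it was not well above background. The groups did not overlap. Means of -0.57 and -7.89 put this probe at least 59.6-fold higher in DN1, with each treated DN array set to its lowest signal well above background. The fitted gap of 7.37 ± 0.99 log2 units (SE, n = 3 and 3, limma adjusted p = 0.0403) depends on the background values, and the probe passed the filter only through the DN1 arrays, so it had to differ. A second Mpped2 probe read -0.22, -1.67 and -4.18 against -3.69, -4.56 and -8.50, and these groups overlapped. The fitted gap was 3.25 with normexp background (adjusted p = 0.964), 5.41 with the mean of both probes (adjusted p = 0.18) and 8.04 with slide as a fixed block (adjusted p = 0.249). With the 6 treated arrays alone the adjusted p was 0.111, and Mpped2 was not among the 4 genes called. With the 11 DN and DN1 arrays alone, the 1 gene called carried a clone name and was not Mpped2. The call was lost without any 1 of the 6 treated arrays (adjusted p = 0.0601 to 0.424), and no gene was called higher without control DN replicate 1 or without control DN replicate 2, which enter only the shared spread. In control cells Mpped2 read -1.39 and -6.70 in DN1 and 0.01, -0.29 and -0.82 in DN arrays.

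The genes behind the sort came next, as a check of the labels and not as findings. Cd44, the adhesion receptor that defines the DN1 gate, read 1.59, 2.22 and 2.34 in treated DN1 and 1.66, 2.09 and 1.95 in treated DN arrays. These ranges overlapped, and the gap of 0.20 had a 95% interval of -0.77 to 1.17; its sign turned with normexp background (-0.22) and with the mean of its probes (-0.11). In control cells Cd44 was 3.07 and 2.40 in DN1 against 0.83, 0.45 and -0.22 in DN arrays, with no overlap. Il2ra, which encodes CD25, was 0.32, 0.02 and 0.49 in treated DN1 and 0.71, 1.08 and 0.63 in treated DN arrays. Every treated DN1 array lay below every treated DN array, the order the gate sets, but the gap of -0.49 ± 0.70 was not called (limma adjusted p = 0.996). Of the 4 Il2ra probes well above background on all 6 arrays, 2 had no overlap and the other 2 overlapped. Control DN1 arrays read -2.60 and -0.30 and control DN arrays 0.20, 1.54 and 1.97 for Il2ra. Transcripts of the excluded coreceptors were measured on all 6 treated arrays. The brightest Cd8b1 probe read 4.96, 2.05 and 1.59 in DN1 and 3.78, 4.09 and 3.64 in DN arrays, above the 75th percentile throughout. The other Cd8b1 probe lay below it, between -2.05 and -0.44. On its brightest probe Cd8a read 2.71, 0.21 and -1.58 in DN1 and 1.40, -1.46 and 0.98 in DN arrays. Cd4 lay between -4.48 and -3.22 on all of them. By Cd44 mRNA, then, the label DN1 was not told apart from DN after treatment, and Il2ra mRNA followed the order of the gate on 2 probes only.

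Vpreb1, a component of the surrogate light chain of the pre-B-cell receptor, marked both treated populations. It read 7.17, 3.70 and 6.55 in treated DN1 and 7.53, 4.36 and 7.35 in treated DN arrays. The control arrays lay between -1.15 and 0.92, below all 6 treated ones. Replicate 2 was the lowest array of each treated group, and both lay on slide 3. The gap of -0.56 had a 95% interval of -2.86 to 1.74, which holds sizeable differences either way; its direction turned to 0.53 with slide as a block and to 0.42 without treated DN1 replicate 2. Igll1, the other surrogate light chain component, and Vpreb3, a related B-precursor gene, had gaps of -0.56 and -0.68 and were not called; both were named after their values were seen. In the list of B-cell precursor genes the median gap was -0.56 over 15 genes. Of them 1, Dntt, was lower in DN1 with no overlap between the arrays, against 7.92% of all genes.

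**Figure D1:**
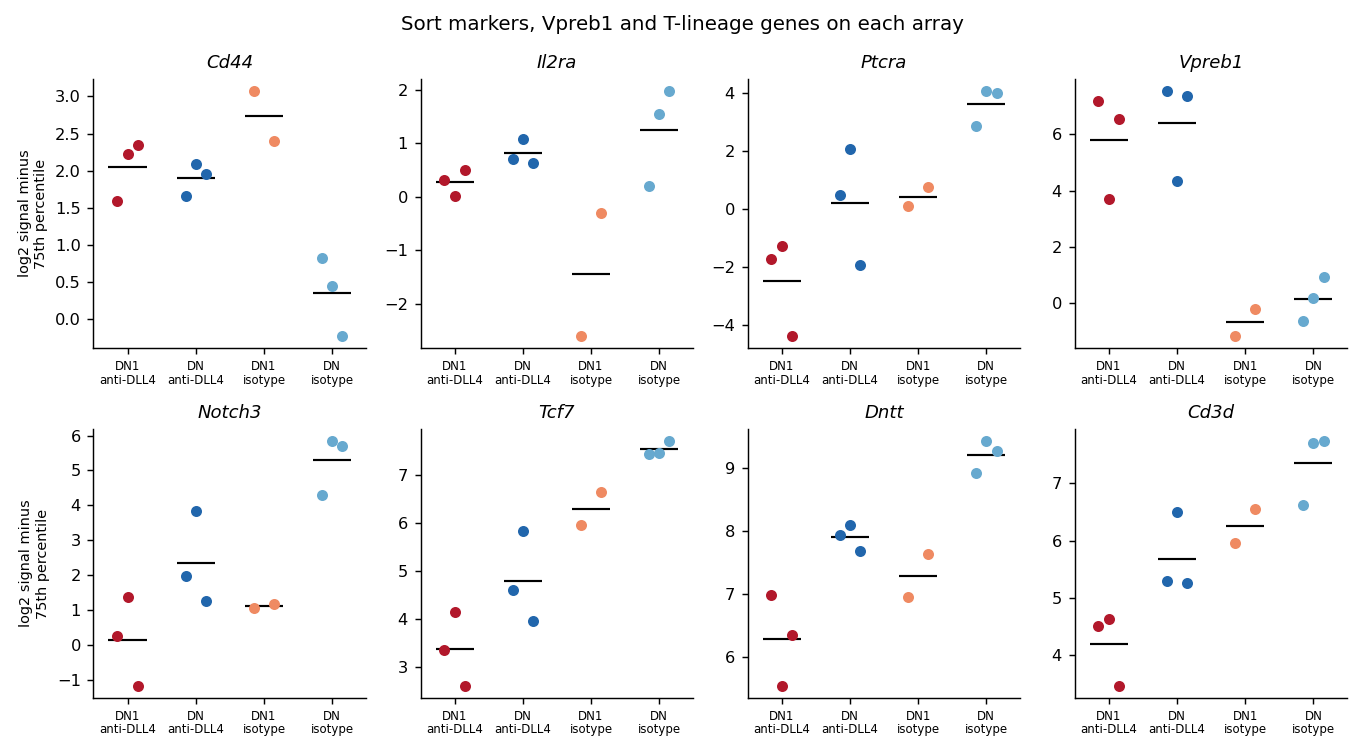
Log2 signal minus the array's 75th percentile (y axis) of 8 genes on each array of the 4 groups (x axis); points are arrays and bars are group means. Cd44 separates the control groups and not the treated ones, Vpreb1 is high on all 6 treated arrays, and Notch3, Tcf7, Dntt and Cd3d have lower means in treated DN1 than in treated DN cells, none of them called.

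Genes of the DN2 and DN3 stages mostly had lower means in treated DN1 than in treated DN cells, with no member called. Of 28 genes, 24 had a gap below the median gene and the list median was -0.93, against 0 over all genes tested. Between the arrays, 9 of the 28 did not overlap and were lower in DN1, against 7.92% of all genes, and 1 was higher, against 4.60%. After quantile normalization, which gives every array the same distribution of values, 4 of 28 were lower with no overlap (9.51% of all genes) and 1 was higher (4.82%), and the list median was -0.59. The list median stayed below 0 under all 20 alternatives run, between -1.20 and -0.59. With the isotype antibody the list median was 0.04.

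Ptcra encodes the invariant chain of the pre-T receptor and is a direct NOTCH target. It read -1.74, -1.29 and -4.37 in treated DN1 and 0.47, 2.06 and -1.92 in treated DN arrays. Replicate 3 was the lowest of each group, and the lowest DN array lay inside the DN1 range. The gap was -2.63 ± 0.89 (95% interval -4.51 to -0.74, limma adjusted p = 0.968). The control gap was -2.48 ± 0.99, with 0.11 and 0.75 in control DN1 and 2.85, 4.06 and 3.99 in control DN arrays. The unshifted treated gap minus the unshifted control gap, relative to its own median over all genes of 0.54, was 0.00 ± 1.33 (interaction adjusted p = 0.877). It therefore need not equal the difference of the 2 gaps printed here.

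Notch3, a NOTCH receptor that is itself switched on at the DN2 and DN3 stages, followed the same order of groups. Treated DN1 arrays read 0.27, 1.37 and -1.16 and treated DN arrays 1.99, 3.83 and 1.27, the highest DN1 array lying just above the lowest DN array. The gap was -2.15 ± 0.70 (limma adjusted p = 0.968), and -2.28 between the arrays of slide 3. In control cells the gap was called, at -3.43 ± 0.78 (limma adjusted p = 0.0149), from 1.07 and 1.19 in DN1 to 4.31, 5.84 and 5.71 in DN arrays. By the same measure the treated gap minus the control gap was 1.42 ± 1.05, which was not called (interaction adjusted p = 0.442). In the list of NOTCH receptors and targets, 18 of 24 genes lay below the median gene with a list median of -0.52, and 2 of 24 were lower with no overlap between arrays, a share close to the 7.92% of all genes. Dtx1, a NOTCH target that encodes a ubiquitin ligase, had a gap of -1.17 ± 0.72, and Lef1, a factor of the TCF family, of -0.89 ± 0.56, with overlapping arrays in both.

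The promoters of Ptcra and Notch3 are shown because these were the NOTCH-pathway genes with the smallest unadjusted p. The sequences are the 250 bases before the start of the RefSeq gene model (build GRCm38.p6, 5′ to 3′ on the gene's strand), in lower case, with matches to the RBPJ core letters TGGGAA, or TTCCCA on the other strand, in capitals.
Ptcra, chr17:46763713-46763962, minus strand: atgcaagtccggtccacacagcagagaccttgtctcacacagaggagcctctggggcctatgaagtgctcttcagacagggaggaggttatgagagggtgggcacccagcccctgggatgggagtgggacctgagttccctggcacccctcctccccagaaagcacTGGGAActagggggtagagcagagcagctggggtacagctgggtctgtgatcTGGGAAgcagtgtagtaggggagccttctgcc
Notch3, chr17:32166891-32167140, minus strand: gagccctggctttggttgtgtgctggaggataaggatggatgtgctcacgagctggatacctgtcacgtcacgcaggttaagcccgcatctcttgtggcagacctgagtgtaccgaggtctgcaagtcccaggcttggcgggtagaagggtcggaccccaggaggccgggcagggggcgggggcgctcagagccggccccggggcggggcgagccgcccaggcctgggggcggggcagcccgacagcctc
The Ptcra window held 2 matches, whose first bases lie 84 and 32 bases before the start, and the Notch3 window held 0. These letters occurred in 21.6% of 32851 promoter windows of the same length. A match is a description of letters, and no match says nothing about binding elsewhere.

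Tcf7, which encodes TCF-1, a NOTCH-induced factor of T commitment, read 3.34, 4.15 and 2.60 in treated DN1 and 4.60, 5.83 and 3.95 in treated DN arrays. The ranges overlapped through 1 array of each group, and the gap was -1.38 ± 0.58 (limma adjusted p = 0.968). Dntt encodes TdT, the polymerase that adds bases at V(D)J joints in both T and B precursors. It was 6.99, 5.55 and 6.35 in treated DN1 and 7.94, 8.10 and 7.68 in treated DN arrays, with no overlap and a gap of -1.56 ± 0.62 (adjusted p = 0.968). All 3 Dntt probes had lower DN1 means. Cd3d, a signalling chain of the T-cell receptor complex, was 4.50, 4.62 and 3.46 against 5.30, 6.50 and 5.25, again with no overlap, and its gap was -1.44 ± 0.65 (adjusted p = 0.968). Thy1, a surface glycoprotein of T-lineage cells, had a gap of -1.37 ± 0.72 with no overlap on its brightest probe. Its other probe, also well above background on all 6 arrays, overlapped, with group means differing by -0.04. Cd3e and Cd3g, named after their values were seen, had gaps of -0.97 and -1.16 with no overlap. Runx3, a factor of cytotoxic T cells and also named after its values were seen, lay higher in every treated DN1 array, with a gap of 0.84 ± 0.81. In bulk RNA, fewer cells of a type and less RNA per cell cannot be told apart.

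Genes of antigen presentation and of B and dendritic cells had small DN1 minus DN gaps after anti-DLL4, while with the isotype antibody many were much higher in DN1. This was tested as an interaction, the treated gap minus the control gap. Its values are taken before either gap is shifted and then given relative to their own median over all genes, 0.54. It was called for 59 of 21228 genes (0.278%): for 42 the treated gap was lower (0.198%) and for 17 it was higher (0.0801%), and 2585 genes (12.2%) had an unadjusted p under 0.05. For 14 of the 17 no treated DN array was well above background, so they passed the filter only through treated DN1 arrays. All 42 were well above background on all 6 treated arrays. Their treated gaps ran from -1.20 to 0.29 with a median of -0.34, and their control gaps from 3.79 to 7.76 with a median of 5.07, each of them called in the control contrast. With slide as a fixed block, or with the 11 DN and DN1 arrays alone, 0 genes were called. The numbers called were 194 and 476 without control DN replicate 3 and 0 and 2 without control DN1 replicate 1. Control DN arrays had the lowest 75th percentiles of the 4 groups, and with array strength as a covariate 51 genes were called lower (38 of the 42 among them) and 19 higher (14 of the 17 among them).

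MHC class II genes led these calls. H2-Aa, the alpha chain of the I-A molecule, was 3.91, 4.73 and 4.34 in treated DN1 and 4.22, 4.80 and 3.84 in treated DN arrays, fully overlapping. The gap was 0.09 with a 95% interval of -0.96 to 1.13, and its sign changed under several settings. In control cells H2-Aa was 5.05 and 4.19 in DN1 and -1.73, -0.84 and -0.92 in DN arrays, a gap of 6.51 ± 0.55. The interaction was -6.28 ± 0.74 (limma interaction adjusted p = 0.0112), -7.41 on slide 3, and -6.59 with slide as a block (adjusted p = 0.101). The second H2-Aa probe had the same order of groups, with 2.61 to 3.85 on the 6 treated arrays and -2.39 to -1.37 on control DN arrays.

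H2-Ab1 and H2-Eb1, the beta chains of I-A and I-E, had treated gaps of -0.43 ± 0.47 and -0.72 ± 0.49, which turned to 0.39 and 0.33 with quantile normalization. Their interactions were -5.10 ± 0.70 and -5.23 ± 0.74 (limma adjusted p = 0.0332 for both). H2-DMb2, a chain of the DM peptide-exchange molecule, read between -1.44 and -0.19 on the 6 treated arrays. All control DN arrays lacked a signal well above background for it, so the size of its interaction, -7.01 ± 0.83 (adjusted p = 0.0112), is set by background values there. It was -2.84 with normexp background (adjusted p = 0.429). Cd74, the invariant chain that guides class II molecules, was 8.34, 7.42 and 7.26 in treated DN1 and 8.65, 8.67 and 8.65 in treated DN arrays, lower in every DN1 array, with a gap of -0.93 ± 0.62 that was not called (adjusted p = 0.968) and turned to 0.24 with quantile normalization. Over the 12 class II genes the treated median gap was -0.31 (0.14 with quantile normalization) and the control median 4.13. Of the 12, 4 were interaction calls with a lower treated gap (0.198% of all genes). Between arrays, 2 of the 12 were lower with no overlap (7.92% of all genes), and 0 with quantile normalization.

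Promoters of H2-Aa and H2-Eb1 are shown because both had a control gap and an interaction that were called. They are the 250 bases before the start as above, with matches to the Y-box letters GATTGG, or CCAATC on the other strand, in capitals.
H2-Aa, chr17:34287824-34288073, minus strand: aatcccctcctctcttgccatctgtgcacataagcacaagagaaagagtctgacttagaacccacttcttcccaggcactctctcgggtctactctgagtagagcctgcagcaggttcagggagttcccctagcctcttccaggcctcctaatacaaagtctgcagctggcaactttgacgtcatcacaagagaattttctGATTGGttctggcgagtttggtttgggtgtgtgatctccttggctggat
H2-Eb1, chr17:34305617-34305866, plus strand: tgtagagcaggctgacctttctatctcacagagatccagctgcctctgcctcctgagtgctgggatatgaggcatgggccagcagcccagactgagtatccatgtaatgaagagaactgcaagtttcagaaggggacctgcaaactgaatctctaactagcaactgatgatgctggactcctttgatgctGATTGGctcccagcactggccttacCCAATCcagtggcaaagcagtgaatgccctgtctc
The Y box, bound by the factor NF-Y, is part of the promoter module shared by class II genes. The H2-Aa window held 1 match, starting 49 bases before the start, and the H2-Eb1 window held 2, starting 60 and 35 bases before it. These letters were in 14.6% of 32851 windows of that length.

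B-cell genes had the same pattern. The list of 22 mature B-cell genes had a treated median gap of -0.10 and a control median of 4.10, and 10 of the 22 were called higher in control DN1 cells (1.15% of all genes). Fcrla, an Fc-receptor-like protein of B cells, was 5.30, 4.87 and 5.80 in treated DN1 and 5.68, 4.95 and 5.99 in treated DN arrays, and between -0.82 and -0.03 in control DN arrays. Its treated gap was -0.17 ± 0.53 and its interaction -5.52 ± 0.80 (limma adjusted p = 0.0332). Fcmr, the IgM Fc receptor, was lower in every treated DN1 array (6.09, 6.72 and 6.41 against 7.17, 7.68 and 7.02). That gap of -0.84 ± 0.57 was not called and turned to 0.05 with quantile normalization, and its interaction was -5.84 ± 0.86 (adjusted p = 0.0332). Tnfrsf13c, the BAFF receptor, had a treated gap of -0.18 ± 0.60 and an interaction of -5.11 ± 0.90 (adjusted p = 0.0489). Ighm, the IgM heavy chain, and Cd79b, its signalling partner, read between 6.95 and 9.36 on the 6 treated arrays and had gaps of -1.12 ± 0.61 and -0.94 ± 0.52. Both gaps turned positive with quantile normalization, to 0.10 and 0.17.

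Chemokine receptors and dendritic genes were also among the 42. Cxcr5, the receptor that guides B cells to follicles, was 3.45, 5.25 and 4.52 in treated DN1 and 4.08, 4.71 and 4.67 in treated DN arrays, a gap of -0.04 ± 0.61 with an interaction of -5.81 ± 0.91 (limma adjusted p = 0.0355). Ccr7, which guides mature dendritic cells and thymocytes, had a treated gap of -0.26 ± 0.49 and an interaction of -4.26 ± 0.73 (adjusted p = 0.0489). Cxcr3, a receptor of effector lymphocytes, had a treated gap of -1.13 ± 0.67 and an interaction of -5.86 ± 1.00 (adjusted p = 0.0406). Clec10a, a lectin of dendritic cells and macrophages, was -0.31, 2.47 and 0.11 in treated DN1 and 0.70, 1.54 and 0.76 in treated DN arrays. In control DN arrays it was well above background on 1 of 3, so that background values enter its interaction of -7.82 ± 1.23 (adjusted p = 0.0332), which was -3.92 with normexp background (adjusted p = 0.261). Ctss, the protease cathepsin S that trims the invariant chain, was 6.69, 6.38 and 6.22 in treated DN1 arrays and had a mean of 6.95 over the treated DN arrays, each of which lay above the DN1 arrays. The treated gap of Ctss was -0.47 ± 0.45, and control DN arrays lay between 2.46 and 3.14. Conventional dendritic cell genes had a treated median gap of -0.09 over 18 genes and a control median of 3.98. Plasmacytoid dendritic cell genes had -0.41 over 16 genes and 2.70, and type I interferon response genes 0.02 over 23 and 2.33.

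**Figure D2:**
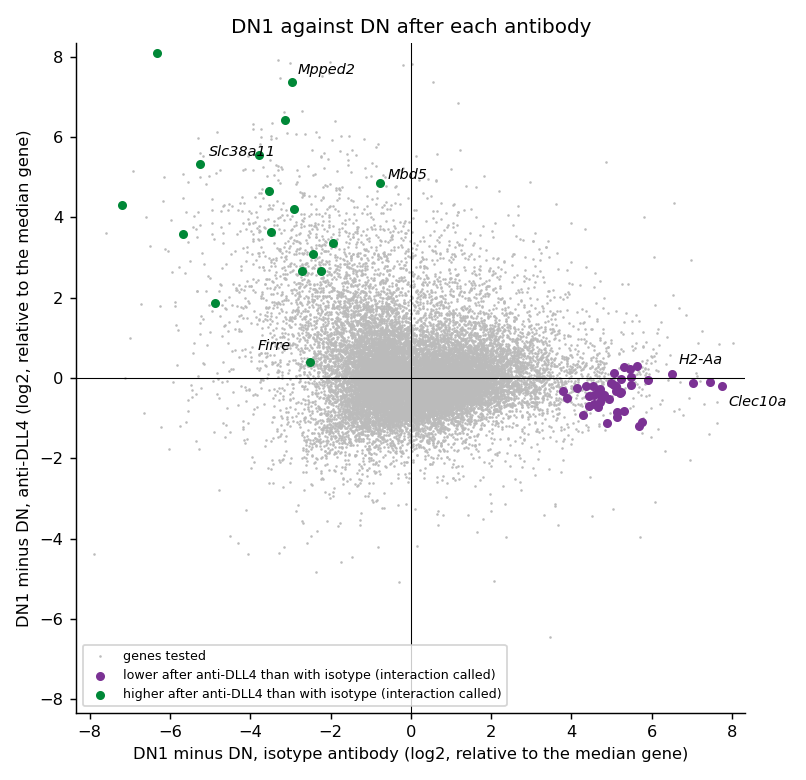
Each point is 1 of the 21228 genes tested, placed by its DN1 minus DN gap with the isotype antibody (x axis) and after anti-DLL4 (y axis), both in log2 units relative to the median gene. The 42 interaction calls with a lower treated gap (purple) lie near 0 on the y axis and between 3.79 and 7.76 on the x axis, and the 17 with a higher treated gap (green) lie at the upper left.

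NK and innate lymphoid genes mostly had lower means in treated DN1 cells. Of 20 genes, 19 lay below the median gene in the treated contrast, the list median was -0.75, and 6 were lower in every treated DN1 array, with no member called (background of such genes 7.92%). With quantile normalization the median was -0.56 and 5 of 20 did not overlap (background 9.51%). The control median was 4.17, with 7 of 20 called higher in control DN1 cells (1.15% of all genes). The treated median was -0.31 without treated DN1 replicate 1, -0.42 without treated DN replicate 2 and -1.42 without treated DN1 replicate 2, and -0.10 between the arrays of slide 3. Klre1, an NK lectin-like receptor, was -3.37, -4.12 and -3.30 in treated DN1 and -1.64, -2.62 and -2.50 in treated DN arrays, with no overlap. Its gap was -1.30 ± 0.73 (limma adjusted p = 0.968), while its other probe had overlapping groups and a difference of 0.22 before the shift by the median. Ccl5, a chemokine of NK and effector T cells, was 4.80, 5.49 and 4.74 against 5.98, 6.70 and 6.37, and Nkg7, a granule protein of cytotoxic cells, was 4.42, 5.01 and 4.65 against 5.72, 6.41 and 5.79. Both had no overlap on any of their probes, and their gaps were -1.29 ± 0.69 and -1.24 ± 0.59 (limma adjusted p = 0.968 for both). The protease gene Gzmb overlapped, with 2.49, 4.07 and 3.11 against 3.52, 3.66 and 3.17, and its interaction of -5.17 ± 0.83 was called (adjusted p = 0.0390). Klra1, whose probe can share signal with near-identical Ly49 family genes and which had no control DN array well above background, had an interaction of -5.43 ± 0.86 (adjusted p = 0.0390), which was -1.16 with normexp background (adjusted p = 0.893).

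**Figure D3:**
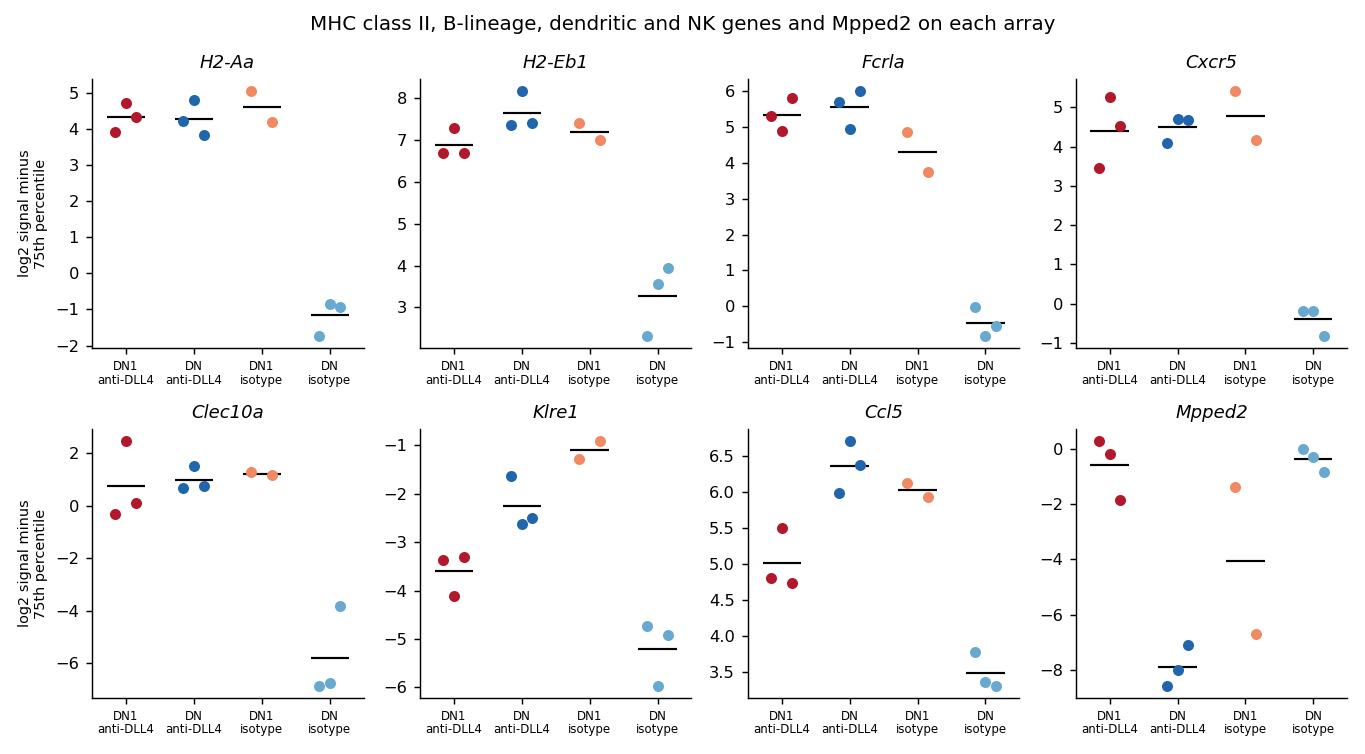
Log2 signal minus the array's 75th percentile (y axis) of 8 genes on each array of the 4 groups (x axis); points are arrays and bars are group means. H2-Aa, Fcrla, Cxcr5 and Clec10a overlap between treated DN1 and treated DN arrays and lie far lower on control DN arrays, Ccl5 and Klre1 are lower on every treated DN1 array, and Mpped2 is near background on treated DN arrays.

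Early progenitor and other lineage genes had list medians near that of all genes. The early thymic progenitor list, with the receptors Kit and Flt3, had a treated median gap of -0.29 over 24 genes (-0.01 with quantile normalization) and a control median of 1.61. Kit and Flt3, named after their values were seen, had treated gaps of 0.59 ± 0.65 and 0.28 ± 0.57. Monocyte and macrophage genes had a treated median of 0.06 over 19 genes, neutrophil genes 0.18 over 13, mast cell and basophil genes 0.28 over 10 and erythroid genes 0.25 over 10. Thymic epithelial genes had 0.09 over 16 and fibroblast and endothelial genes 0.30 over 14. None of their members was called. Over the settings run the neutrophil median ranged from -0.56 to 1.40 and the monocyte median from -0.12 to 0.59. Fcgr1, the high-affinity IgG receptor of monocytes, was 0.00, 0.14 and -0.85 in treated DN1 and -6.32, -0.89 and -5.35 in treated DN arrays. On this probe the groups just missed overlap (-0.85 against -0.89), and the gap was 4.00 ± 1.37 (limma adjusted p = 0.968). Its other probes overlapped, with -4.71 and -4.93 in treated DN1 replicate 3 against -3.62 and -4.45 in treated DN replicate 2. Regulatory T-cell genes had a treated median of -0.35 over 11 genes, gamma-delta and innate-like T genes -0.19 over 11, and double-positive and single-positive stage genes -0.30 over 20. Cytokine receptor genes had -0.13 over 30 and the transforming growth factor receptor gene Tgfbr2 a treated gap of -0.19 ± 0.48 with an interaction of -4.42 ± 0.72 (adjusted p = 0.0406). The Tgfbr2 interaction was -1.14 with the mean of its 3 probes (adjusted p = 0.797), the other 2 being dim.

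Genes of ribosomes, respiration and DNA replication had lower means in treated DN1 arrays, in a way that depended on the scaling. All 32 ribosomal protein genes lay below the median gene, with a list median of -1.05 and a range of -1.20 to -0.64, and 24 of 32 were lower with no overlap (7.92% of all genes). With quantile normalization the ribosomal median was 0.02 and 1 of 32 was lower with no overlap (9.51% of all genes), so with that scaling the list was no longer lower. Under the 20 alternatives run the ribosomal median lay between -1.48 and 0.02, below 0 in 19. Oxidative phosphorylation genes, of the mitochondrial respiratory chain and ATP synthase, had, beside the same shares of all genes, a median of -0.70 with 15 of 29 lower without overlap, and -0.14 with 5 of 29 after quantile normalization. DNA replication genes had a median of -0.57 with 5 of 23 lower without overlap, and -0.18 with 0 after quantile normalization. Mitosis genes had -0.32 over 24 and 0 without overlap.

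Across all genes the treated gap moved with signal. Split into 10 equal groups by mean signal on the 6 arrays, the median gap was 0.61 in the dimmest group of genes and -0.47 in the brightest. Genes lower in every DN1 array made up 0.848% of the dimmest and 33.4% of the brightest group, and genes higher in every DN1 array 8.57% and 0.518%. With quantile normalization the same medians were 0.38 and 0.05. The T-lineage, NK and ribosomal lists are thus read beside a background that depends on brightness, and its part in those lists was not tested.

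**Figure D4:**
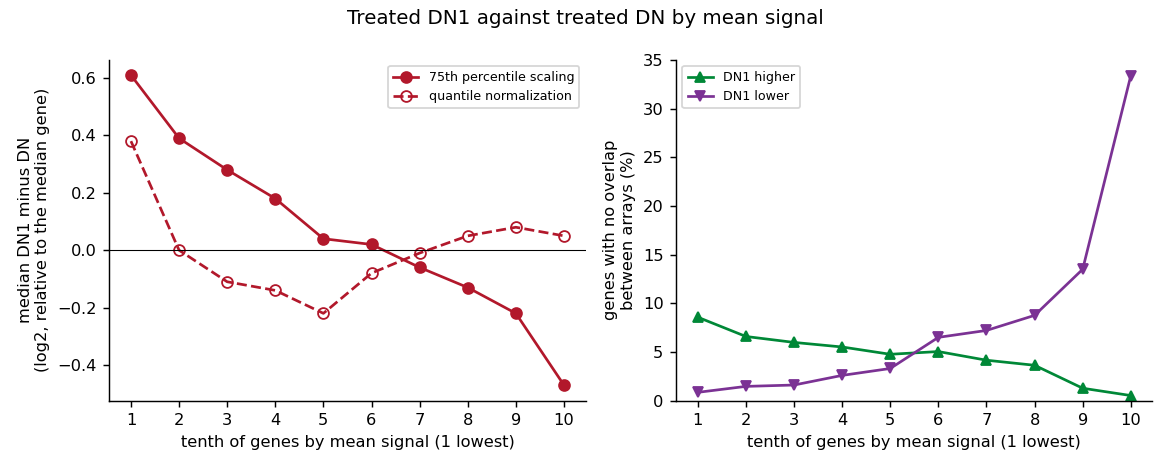
Left, the median treated DN1 minus DN gap (y axis, log2 relative to the median gene) in 10 equal groups of genes ordered by mean signal (x axis), with 75th percentile scaling (filled) and quantile normalization (open). Right, the percentage of genes whose 3 DN1 and 3 DN arrays do not overlap, which reaches 33.4% for lower genes in the brightest group.

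Among genes with a symbol in the reference table that is no clone or predicted-gene name, those with no overlap and the smallest unadjusted p were named by rule, and apart from Mpped2 none was called. Lower in treated DN1 cells was Sh2d1a, which encodes the adaptor SAP of T and NK cells, with -1.24, -2.86 and -2.28 against -0.43, 1.91 and 0.10. Its gap was -2.61 ± 0.61 (limma adjusted p = 0.668), and 2 of its 3 probes agreed in size while the third was near background. Lars2, the mitochondrial leucyl-tRNA synthetase, was 2.37, 3.57 and 3.34 against 5.05, 5.86 and 5.65, a gap of -2.38 ± 0.57. Smo, the Hedgehog signal transducer, was 0.77, 2.74 and 0.47 against 3.32, 5.54 and 2.82, a gap of -2.52 ± 0.74. Acot5, an acyl-CoA thioesterase, was -5.09, -7.19 and -6.51 against -2.28, -2.10 and -2.47, and its gap was -3.94 ± 0.93. Degs2, Drc1, H19, Slc27a1 and Aqp11 had gaps from -3.94 to -1.94. All of these lower genes were well above background on all 6 arrays.

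Higher in treated DN1 cells was Bcl2l2, which encodes the survival protein BCL-W. Its brightest probe was -0.37, -0.39 and -0.52 in treated DN1 and -1.85, -3.16 and -3.15 in treated DN arrays, a gap of 2.34 ± 0.54 (limma adjusted p = 0.668), while a second probe overlapped. Eml5, a microtubule-associated protein, was -0.62, 0.03 and -1.50 against -1.85, -4.52 and -3.41, a gap of 2.61 ± 0.64. Another Eml5 probe well above background on all 6 arrays overlapped, with group means differing by 1.11. A probe well above background on 4 of them did not overlap and differed by 3.93. Cyp2c23, a cytochrome P450, was -0.21, -2.71 and -0.61 in treated DN1 and at background on the treated DN arrays. It was at least 39.1-fold higher where the dim arrays are set to the lowest signal well above background (adjusted p = 0.668). Its probe passed the filter only through the treated DN1 arrays, so it had to differ. In control cells Cyp2c23 did not keep that order, with -3.48 and -0.95 in DN1 and 0.71, 0.77 and -7.58 in DN arrays. The remaining names were Mbd5, Slc38a11, Fam89a, Nxpe4, Dennd2c and Ank2. Slc38a11 and Ank2 were not well above background on any treated DN array and passed the filter only through treated DN1 arrays. A second Nxpe4 probe overlapped, with group means differing by -1.04. The other Ank2 probes, well above background on at most 1 of the 6 arrays, differed by -1.13, 0.09 and -1.23. Mbd5, a methyl-CpG-binding domain protein, was -2.14, -4.66 and -4.80 in treated DN1 and not well above background in any other DN or DN1 array. It was at least 6.07-fold higher than in treated DN cells (adjusted p = 0.148), and it too passed the filter only through treated DN1 arrays. Its other probe was not well above background on any of the 6 treated arrays.

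The 17 interaction calls with a higher treated gap were mostly dim. On no treated DN array was the probe well above background for 14 of them, and 12 of the 17 carry clone or unnamed identifiers. Those 14 passed the filter only through treated DN1 arrays, which favoured a higher treated gap in advance. With only genes above background on all 6 treated arrays, 3 were called with a higher treated gap. Named members of the 17 were Mpped2, Slc38a11, Avil, Mbd5 and Firre. Firre, a long noncoding RNA of the X chromosome, was well above background on every DN and DN1 array, as was LOC674308, named after its values were seen. It was 2.02, 1.99 and 1.33 in treated DN1 and 1.99, 0.87 and 1.45 in treated DN arrays, and 0.22 and 0.55 in control DN1 against 3.56, 3.72 and 3.61 in control DN arrays. The treated gap was 0.39 ± 0.45, the control gap -2.52 ± 0.50 and the interaction 3.04 ± 0.67 (limma adjusted p = 0.0406).

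**Figure D5:**
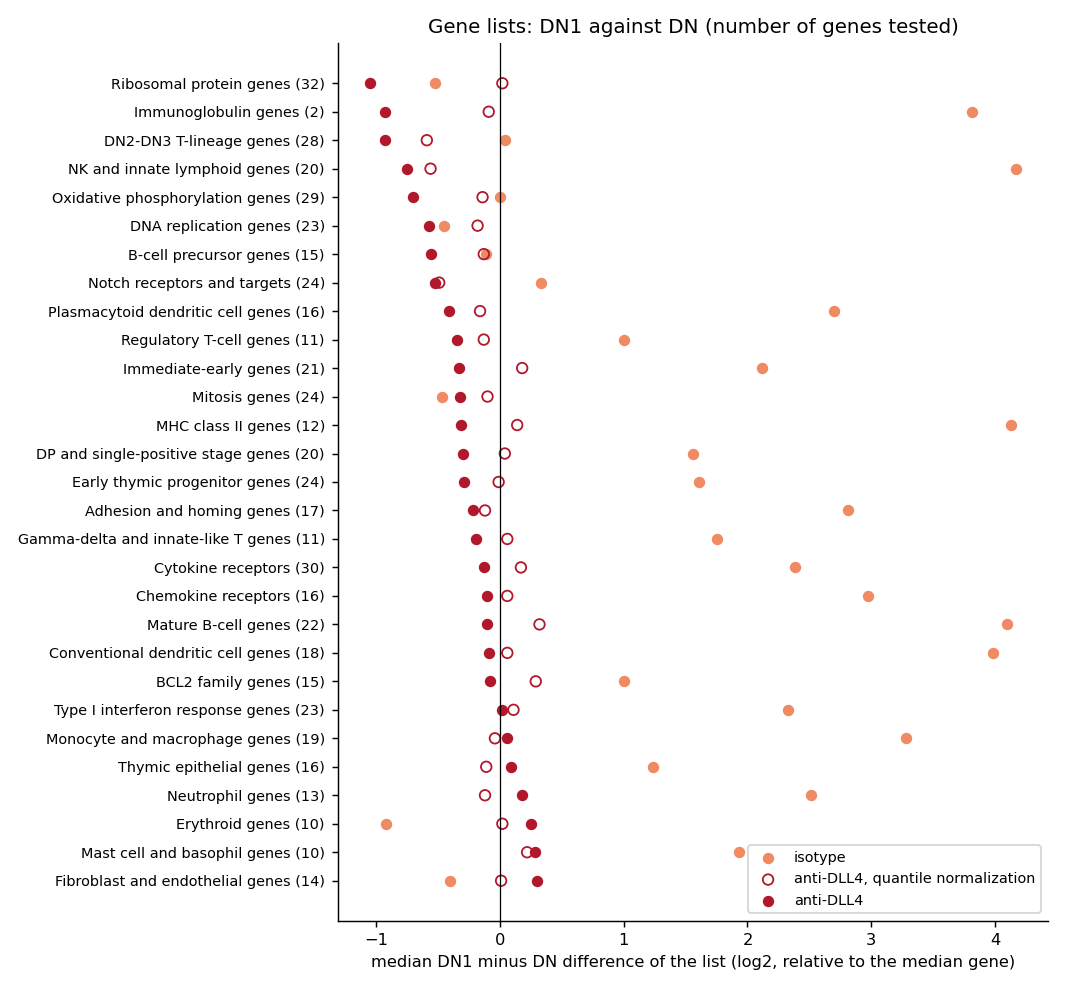
Median DN1 minus DN gap of each gene list (x axis, log2 relative to the median gene) after anti-DLL4 with 75th percentile scaling (filled red), the same with quantile normalization (open red) and with the isotype antibody (orange); the number of genes tested is in brackets. Treated medians lie between -1.05 and 0.30, while control medians reach 4.17 for NK genes and 4.13 for MHC class II genes.

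Over all 31 lists, treated medians lay between -1.05 and 0.30, and control medians between -1.04 and 4.17. The 4 genes that mark the comparison (Cd44, Il2ra, Ptcra and Vpreb1) had a treated median gap of -0.52 and the 5 sort genes 0.18. Immediate-early genes, which respond within minutes to cell handling, had a treated median of -0.33 over 21 genes and 0.18 with quantile normalization. Zfp36, which encodes a protein that destabilizes messenger RNA, had a treated gap of -0.33 ± 0.45 and an interaction of -3.99 ± 0.68 (limma adjusted p = 0.0489). BCL2 family genes had a median of -0.08 over 15 genes. Bcl2a1b, a survival gene with near-identical copies that its probe may not separate, had a treated gap of 0.12 ± 0.54 and an interaction of -4.81 ± 0.81 (adjusted p = 0.0415). Adhesion and homing genes had -0.22 over 17 and chemokine receptors -0.10 over 16. Of the chemokine receptors, 3 were interaction calls with a lower treated gap (0.198% of all genes).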

How the data were processed

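RNA from 18 samples was hybridised to 1-colour Agilent mouse arrays, 1 array per sample. The deposited values are a Cy3 intensity per spot, read with Agilent Feature Extraction 9.5 per the submitters' processing notes (9.5.3.1 per the file headers) and background-subtracted and detrended within each array. The deposited table of the whole series holds a linear ratio per probe, whose divisor is not stated. Its log2 values, set against the scanner values centred on each probe's median over the arrays, had median differences of -0.014 to 0.003 per array, and its column medians were 0.989, 0.652 and 0.729 (treated DN1), 0.814, 0.741 and 0.889 (treated DN), 0.874 and 0.799 (control DN1), 1.423, 1.212 and 0.953 (control DN) and 0.638 to 1.106 (thymocytes).

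From the intensity, log2 minus each array's 75th percentile was computed, without control spots and spots marked as outliers (54 values missing among the 6 treated arrays of the genes tested). Probes were named through RefSeq (GRCm38.p6, names only) by accession for 26215, symbol for 7270 and synonym for 3073 of 43426 probes, and a gene was given by its brightest probe over the 18 arrays. The 6 groups each had a mean in 1 limma model (limma version 3.58.1, R version 4.3.3, data.table version 1.17.8), and all p-values are two-sided. Calls come from unshifted values. An "at least" fold sets each dim array at its lowest signal well above background, or at the dim probe itself where that is higher. Named genes were the marker and sort genes, the 10 smallest p per direction without overlap (called genes first) that have a reference symbol other than a clone or predicted-gene name, up to 4 members per list and further interaction calls on lists, and the 5 leading interaction calls per direction. Some genes that the rule names are not reported here. The members, the 31 lists of 513 genes and the rules were chosen with earlier results of these data known. The scripts were tested on simulated data. Alternatives covered arrays in the fit, slide, replicate block, background, scaling, filter, probe choice, variance trend, array strength and the deposited ratio table. Promoter sequences are RefSeq's. The number of arrays limits the precision, and total thymocytes were used only for the shared spread.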

Additional observations from a re-analysis of the deposited data

Results flagged for a closer look

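In 25 of the genes named, the DN1 minus DN gap after anti-DLL4 differed from that with the isotype antibody. The call was by limma's interaction test at an adjusted p under 0.05. Values are the treated gap minus the control gap in log2 units, relative to the median of all genes for that difference. They concern the same contrast under 2 antibodies, and with slide as a fixed block none was called. In MHC class II and antigen processing, the differences were -6.28 for H2-Aa, -7.01 for H2-DMb2, -5.10 for H2-Ab1, -5.23 for H2-Eb1 and -5.07 for Ctss. B-cell genes gave -5.84 for Fcmr, -5.52 for Fcrla and -5.11 for Tnfrsf13c. Among chemokine receptors they were -5.86 for Cxcr3, -5.81 for Cxcr5 and -4.26 for Ccr7. H2-DMb2 had no control DN array well above background. Dendritic and myeloid genes gave -7.82 for Clec10a, -5.12 for Cd83, -4.89 for Irf4 and -4.26 for Lyz1. Clec10a was well above background on 1 of 3 control DN arrays. NK genes gave -5.43 for Klra1, which had no control DN array well above background, and -5.17 for Gzmb. Background values enter the sizes for H2-DMb2, Clec10a and Klra1. Signalling and survival genes gave -4.42 for Tgfbr2, -3.99 for Zfp36 and -4.81 for Bcl2a1b. The gap was higher after anti-DLL4 by 10.46 for Mpped2, 10.70 for Slc38a11, 9.41 for Avil, 5.77 for Mbd5 and 3.04 for Firre. The probes of the first 4 were not well above background on treated DN arrays and passed the filter only through treated DN1 arrays. Background values set these 4 sizes, which are neither folds nor an order of the genes.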

How the results depend on the processing

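The number of genes called higher in treated DN1 cells was 1, and became 4 with the 6 treated arrays alone, 3 with quantile normalization, 2 with arrays centred on the median gene and 12 with array strength as a covariate. It was 0 with slide as a fixed block, normexp background, scaling to probes above background everywhere, genes above background on all 6 arrays or the mean of a gene's probes. Leaving out 1 array gave 0 to 3 higher and 0 to 2 lower, and without both dim control DN arrays, added after seeing the data like the omission of single control arrays, it was 4. No list member was called under the alternatives run. Interaction calls with a lower treated gap were 42, and 0 with the 11 DN and DN1 arrays alone or slide as a fixed block, 81 with quantile normalization, 72 with centred arrays, 72 with genes above background on all 6 arrays, 77 with a variance trend, 20 without the filter and 4 without both dim control DN arrays. Those with a higher treated gap were 17, and 0 with the 11 arrays, slide as a block or without both dim arrays, 1 with normexp, 3 with genes above background on all 6 arrays and 11 without the filter. Leaving out 1 array gave 0 to 194 and 0 to 476, the extremes being 194 and 476 without control DN replicate 3, and 0 and 2 without control DN1 replicate 1. In each omission other than of treated DN1 replicates 2 and 3 and control DN replicate 3, at most 9 and 2 were called. Same-numbered treated samples deviated with correlations of -0.04, 0.17 and 0.07, so the numbers were not taken to pair the samples, although replicate 2 of both treated groups lay on slide 3; the replicate block called 0 genes (1208 with an unadjusted p under 0.05).

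The treated gap of named genes changed sign, with no call on either side, in 40 cases, and kept its direction and side of the threshold in 2631; the cause was not tested. With slide as a fixed block these were Vpreb1 0.53 and H2-Aa -0.09. With normexp background these were Cd44 -0.22 and H2-Aa -0.36. With quantile normalization these were Cd4 -0.15, Btg2 0.21, Cd74 0.24, Cd79b 0.17, Crlf2 0.04, Dusp2 0.29, H2-Oa 0.04, Ighm 0.10, Irf8 0.43, Junb 0.18, Pou2af1 0.18, Rpl8 0.05, Spib 0.14, Fcmr 0.05, H2-Ab1 0.39 and H2-Eb1 0.33. Among genes above background on all 6 arrays these were H2-DMb2 0.01. With the mean of a gene's probes these were Cd8a -1.01, Cd44 -0.11, Lair1 0.30 and H2-Aa -0.07. With array strength as a covariate these were Cd40 -0.01 and H2-Aa -0.53. Leaving out 1 array gave -0.82 to 1.14 for Cd8a, -1.16 to 0.02 for Crlf2, -1.79 to 0.06 for Csf1r, -0.66 to 0.10 for Irf8, -1.03 to 0.01 for Krt18, -1.65 to 0.10 for Tbx21, -0.48 to 0.32 for H2-DMb2, -1.53 to 0.42 for Vpreb1, -2.22 to 0.22 for Bst1, -0.26 to 2.37 for Mcpt8 and -0.19 to 0.42 for H2-Aa. The Mpped2 call was lost in 14 and Mbd5 gained one in 3 alternatives. These counts leave out the fit to the 11 DN and DN1 arrays alone, where Mpped2 was not called either. List medians moved beyond the replicate spread in 32 cases and stayed within it in 588. Genes not well above background on treated DN arrays have bounds only.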

Other observations

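Some of the 42 interaction calls with a lower treated gap stand on no list; those given here were chosen after their values were seen and form no group that was tested. Mzb1, a chaperone of immunoglobulin assembly in B cells, had a treated gap of -0.64 and a control gap of 4.57. Napsa and Ctsh, proteases of the endosomal pathway, had treated gaps of -0.33 and -0.21 and control gaps of 5.12 and 4.54, and Ifi30, the lysosomal thiol reductase of antigen processing, had -0.35 and 4.67. Gpr183, the oxysterol receptor that positions B and dendritic cells, had -0.28 and 4.71. Cd55, a complement regulator, had -0.10 and 7.45, Ly6a, which encodes Sca-1, -0.12 and 4.98, and Lgals3, galectin 3, -0.60 and 4.72. Of the NK Ly49 receptor genes, Klra8, Klra9 and Klra10 had treated gaps of -1.20, -1.10 and -0.82 and control gaps of 5.67, 5.76 and 5.31, and their probes may share signal.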
